A study of Mus musculus with 6 samples.

Results

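The proteasome genes were followed through the probes of an Illumina mouse bead array whose names held PSMA, PSMB, PSMC or PSMD and a number. The rule was met by 67 of the 46643 probes, and 66 of them named a proteasome subunit or a chaperone of its assembly. The remaining probe, PSMC3IP, names a meiotic recombination cofactor and was kept apart. The 66 probes covered 38 genes, of 34325 target names on the array: 29 probes lay in the core particle, 29 in the regulatory particle and 8 in the base assembly chaperones. The probes were chosen by name, but PSMC1 among them was selected on its measured values over the 6 arrays, so these are given as a description, with no test.

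The cells were CCE mouse embryonic stem cells, a feeder-free line kept in serum with leukemia inhibitory factor (LIF). They were transfected by Lipofectamine with the pSuper.puro plasmid carrying a short hairpin RNA. This was Prmt6 shRNA1 or Prmt6 shRNA2, against an arginine methyltransferase of histone H3, or an shRNA to GFP as the control, and all 3 groups were selected with puromycin at 1.5 µg/ml for 4 days from 18 h after transfection. Each group had 2 arrays, 6 in all, and the labels do not say whether replicates were separate cultures, so p-values measure the spread between these samples only. Knockdown was transient, and the groups were whole selected populations, not clones. In bulk RNA, fewer cells of a type and less transcript per cell cannot be told apart.

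The proteasome degrades proteins that carry ubiquitin chains. Its core particle is a barrel of stacked rings: the alpha subunits (Psma genes) form the outer rings and gate the entry, and the beta subunits (Psmb genes) form the inner rings, where Psmb5, Psmb6 and Psmb7 hold the peptidase sites. The regulatory particle caps the barrel. Its base holds a ring of ATPases (Psmc1 to Psmc6) that unfold the substrate and thread it into the core, and its lid (most Psmd genes) removes ubiquitin. The subunits are assembled in fixed proportions, and most of their genes are transcribed in all tissues. Embryonic stem cells are known for high proteasome activity.

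Values are log2 intensities after background correction and quantile normalization, and a probe was called detected on an array when its detection p was under 0.01. The arrays detected between 5782 and 10928 probes, and 9138 probes that were detected on at least 2 arrays were kept and tested. The precision of all values is limited by having 6 arrays. The probe IDs fell into 2 numeric series. On Prmt6 shRNA2 replicate 2, 935 probes of the second series passed as detected, where the rest had 1302 to 2836, and the correlation with its replicate over kept second-series probes was 0.714. Prmt6 itself was read by 2 kept probes, at log2 differences of -1.84 ± 0.38 and -1.48 ± 0.27 (SE) for both hairpins against GFP shRNA, and neither passed the limma test (adjusted p = 0.135 and 0.105). Both were second-series probes, detected on 3 and 2 of the 6 arrays. On Prmt6 shRNA2 replicate 2 they read 5.54 and 6.03, where the lowest detected signal was 8.06. These differences rest in part on values below detection and do not measure the size of the knockdown. Of 8 embryonic stem cell markers 7 were kept, with Tdgf1 the exception, while no probe of the haematopoietic markers Ptprc and Cd52 was.

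The PSMC1 probe gave signal on both Prmt6 shRNA1 arrays and on none of the other 4. Psmc1 encodes Rpt2, the ATPase whose C-terminal tail helps open the gate of the core. Its intensities, as deposited, were -12.8 and -13.7 on the GFP shRNA arrays, 339.6 and 627.1 on those of Prmt6 shRNA1, and -19.3 and -22.8 on those of Prmt6 shRNA2. The normalized log2 values were 5.52 and 5.61, 8.99 and 9.00, and 5.56 and 5.53 in the same order, so the Prmt6 shRNA1 arrays stood far above the rest and the other groups overlapped. The probe was detected on both Prmt6 shRNA1 arrays and not well above background elsewhere. Against the lowest detected signal on the dim arrays, the level with Prmt6 shRNA1 was at least 2.93-fold that with GFP shRNA and at least 2.33-fold that with Prmt6 shRNA2. The measured group means were 8.99 ± 0.008 with Prmt6 shRNA1, 5.57 ± 0.061 with GFP shRNA and 5.54 ± 0.017 with Prmt6 shRNA2 (SD, n = 2 each).

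In fitted log2 differences, PSMC1 stood at 3.43 for Prmt6 shRNA1 minus GFP shRNA, at -0.02 for Prmt6 shRNA2 minus GFP shRNA and at -3.45 for Prmt6 shRNA2 minus Prmt6 shRNA1. By size these ranked 7, 8769 and 5 among the 9138 kept probes. The average over both hairpins, 1.70, therefore described neither hairpin. PSMC1 was singled out for these values, so nothing is read from the ranks. It was detected on no GFP shRNA or Prmt6 shRNA2 array. The difference of -0.02 thus compares values below detection and does not show an equal level. The table held 1 PSMC1 probe.

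Psmc1 and its sister genes Psmc4 and Psmc5 encode neighbouring subunits of the ATPase ring, and their kept probes read differently. The kept probes of Psmc4 and Psmc5 were detected on all 6 arrays. The upstream sequences of Psmc1, Psmc4 and Psmc5 are therefore shown. Each is the stretch of 250 bases before the RefSeq transcript start (GRCm38.p6), 5′ to 3′ on the gene's strand, at chr12:100109952-100110201 (plus strand) for Psmc1, chr7:28050093-28050342 (minus strand) for Psmc4 and chr11:106255935-106256184 (plus strand) for Psmc5. Capitals mark matches to a CCAAT box (CCAAT), an ETS core (CCGGAA) or an antioxidant response element core (TGACNNNGC), searched on both strands.
Psmc1: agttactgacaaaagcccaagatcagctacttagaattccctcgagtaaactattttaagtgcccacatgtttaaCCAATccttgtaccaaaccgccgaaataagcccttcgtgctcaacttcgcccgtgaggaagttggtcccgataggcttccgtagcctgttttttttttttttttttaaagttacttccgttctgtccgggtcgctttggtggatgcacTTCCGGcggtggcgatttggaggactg
Psmc4: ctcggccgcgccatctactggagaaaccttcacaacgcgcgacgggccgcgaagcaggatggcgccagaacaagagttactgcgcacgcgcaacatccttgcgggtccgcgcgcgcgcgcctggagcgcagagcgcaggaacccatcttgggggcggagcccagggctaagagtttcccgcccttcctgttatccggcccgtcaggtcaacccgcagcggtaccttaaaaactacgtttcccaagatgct
Psmc5: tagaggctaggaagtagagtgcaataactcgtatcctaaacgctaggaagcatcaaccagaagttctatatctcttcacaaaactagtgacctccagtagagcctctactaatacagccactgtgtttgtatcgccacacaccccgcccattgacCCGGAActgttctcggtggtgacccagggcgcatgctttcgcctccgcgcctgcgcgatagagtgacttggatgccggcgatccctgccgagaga

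The Psmc1 stretch held a CCAAT box 175 bases before the start and an ETS core on the opposite strand 27 bases before it. The Psmc5 stretch held an ETS core 95 bases before the start, and the Psmc4 stretch held none of the 3 motifs. The pair of motifs was not confined to Psmc1. A Psmc2 stretch, not shown, held a CCAAT box 28 bases before the start and an ETS core 83 bases before it. The Psmc6 stretch, also not shown, held an ETS core and an antioxidant response element core. Over the 33 upstream stretches matched to 31 of the 38 genes, an ETS core was found in 42.4%, against 12.0% of the 32851 stretches of all genes. The CCAAT box was found in 36.4% of them against 33.8%, and the antioxidant response element core, the letters bound by Nrf1 and Nrf2, in 15.2% against 10.2%. The ETS and CCAAT matches overlapped in none of the stretches shown. These are matches of letters and were not related to binding.

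The sister ATPases did not share the Psmc1 pattern. PSMC3, a probe for the ATPase Rpt5, read 11.63 and 11.33 on the GFP shRNA arrays, 11.35 and 11.41 for Prmt6 shRNA1, and 11.50 and 11.42 for Prmt6 shRNA2, and the groups overlapped. PSMC4, which reads Rpt3, gave 13.12 and 13.33, 13.25 and 13.35, and 13.19 and 13.35 in the same order, again with overlap. Its log2 difference for both hairpins was 0.06 ± 0.16 (SE), and that of PSMC3 was -0.06 ± 0.16. Another probe of PSMC4 was detected on no array, with intensities from -17.1 to 20.1, and was not kept.

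Psmc5, which encodes Rpt6, was read by 2 kept probes. The first gave 11.48 and 11.42 on the GFP shRNA arrays, 11.10 and 10.63 for Prmt6 shRNA1, and 11.29 and 11.10 for Prmt6 shRNA2, so all 4 Prmt6 shRNA arrays lay below both GFP shRNA arrays. The second gave 13.16 and 12.57, 12.51 and 12.51, and 12.30 and 12.68, and overlapped through the last array. Both had negative differences for both hairpins, -0.42 ± 0.20 and -0.36 ± 0.23, and neither passed the limma test (adjusted p = 0.459 and 0.577).

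PSMC2, which reads the ATPase Rpt1, had the lowest difference of the ATPase probes for both hairpins and for Prmt6 shRNA2. It read 8.27 and 8.20 on the GFP shRNA arrays, 7.96 and 7.92 for Prmt6 shRNA1, and 7.64 and 6.98 for Prmt6 shRNA2, the last of these not detected. All 4 Prmt6 shRNA arrays lay below both GFP shRNA arrays, and the Prmt6 shRNA2 arrays were the lowest. The log2 difference was -0.61 ± 0.22 for both hairpins, -0.30 ± 0.26 for Prmt6 shRNA1 and -0.93 ± 0.26 for Prmt6 shRNA2, and none passed (limma adjusted p = 0.351, 0.855 and 0.233). Psmc6, which encodes Rpt4, had 2 probes, and neither was detected on any array. The median over the 5 kept probes of PSMC2 to PSMC5 was -0.36 in the average of both hairpins, -0.30 for Prmt6 shRNA1 and -0.25 for Prmt6 shRNA2, where the median over all kept probes was -0.02, -0.06 and 0.03.

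**Figure D1:**
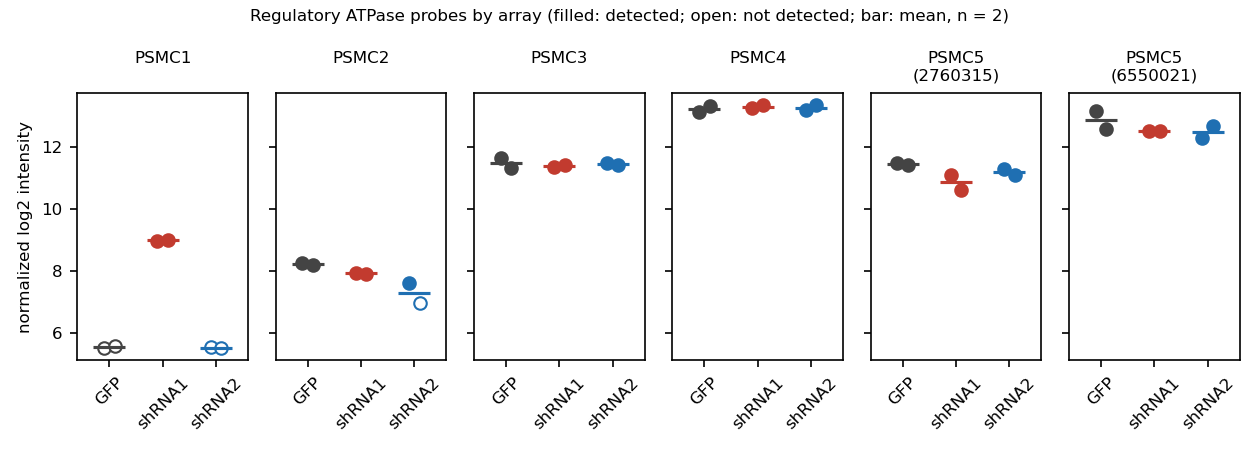
Normalized log2 intensity (y axis) of the 6 kept ATPase probes in the 3 hairpin groups (x axis); points are arrays, filled where detected and open where not, and bars are means (n = 2). PSMC1 sits near 9.00 on both Prmt6 shRNA1 arrays and near 5.5 on the other 4, while the sister probes show no such step.

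The on and off pattern of PSMC1 was uncommon on the array. Of 46643 probes, 30 were detected on both Prmt6 shRNA1 arrays and on no other, against 15 with GFP shRNA and 7 with Prmt6 shRNA2 in the same position. Ordered by their difference with Prmt6 shRNA1, PSMC1 was at rank 2 of the 30, behind ACTA1 (log2 5.54), the actin of skeletal muscle. None of the 30 was detected with GFP shRNA, so this order depends on values below detection. Further probes with the pattern, named after their values were seen, were EPPK1, for the cytolinker epiplakin, at 3.22 and DMKN, for the secreted epidermal protein dermokine, at 3.19. Against the lowest detected signal, the level over GFP shRNA was at least 15.8-fold for ACTA1 and 5.07-fold for EPPK1. It was at least 3.31-fold for the probe SCL0003547.1_6, at rank 3, 2.93-fold for PSMC1 and 2.56-fold for DMKN. With Prmt6 shRNA2 the median of the 30 probes was 0.47, and 3 of them lay within 0.1 of 0, namely PSMC1, CARD10 and CENTD3. The 30 were chosen as undetected on the GFP shRNA and Prmt6 shRNA2 arrays. These differences therefore cannot show which transcripts were unchanged with Prmt6 shRNA2.

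Most markers of a list for simple epithelium and trophectoderm also stood higher with Prmt6 shRNA1 and, by less, with Prmt6 shRNA2. Over 5 such markers (Krt7, Krt8, Krt18, Cdx2 and Cldn4) the summed intensity was 1723.7 and 1319.3 on the GFP shRNA arrays, 12890.8 and 19816.9 for Prmt6 shRNA1, and 4918.8 and 3499.1 for Prmt6 shRNA2. These sums and those below add the deposited intensities of the brightest probe of each gene, kept or not. They were not normalized between arrays and also carry the brightness of each array. All 5 markers were kept, and 4 were called higher with Prmt6 shRNA1. The exception was Cdx2, at 0.61 ± 0.36 with overlap between the groups (limma adjusted p = 0.707). For Krt7, Krt8, Krt18 and Cldn4 all 4 Prmt6 shRNA arrays lay above both GFP shRNA arrays. The median log2 difference of the 5 markers was 3.66 with Prmt6 shRNA1 and 1.47 with Prmt6 shRNA2, where 0 passed the limma test. Over 8 embryonic stem cell markers the sums were 32041.8 and 20186.3, 11853.1 and 21991.4, and 17489.5 and 12669.0 in the same order, with a median log2 difference over the 13 kept probes of -0.52 for the first hairpin and -0.84 for the second, and 0 of them passed the limma test. Over 4 endoderm markers the sums were 923.5 and 740.4, 784.5 and 1638.7, and 2188.5 and 1693.1, with a median over the 3 kept probes of 0.88 and 1.45, and again 0 passed. The part of these markers in the PSMC1 signal and in the differences of the other proteasome probes was not tested.

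Of the 66 probes 41 passed the detection filter, and 35 of them were detected on all 6 arrays. The filter keeps a probe that is bright in any group, so these 41 are not all members. In the average of both hairpins 1 of the 41 was called, PSMC1, where 0.317% of all kept probes were called (limma, adjusted p under 0.05). With Prmt6 shRNA1 alone it was again 1 of 41, PSMC1, against 0.547% of kept probes, and in Prmt6 shRNA2 minus Prmt6 shRNA1 1 of 41, PSMC1, against 0.0328%. With Prmt6 shRNA2 alone 0 of 41 were called, against 0.0% of kept probes. Since PSMC1 was chosen for these values, nothing is read from its calls. They were lost when either GFP shRNA array or either Prmt6 shRNA1 array was left out, which leaves 1 array alone in its group, and those for both hairpins and between hairpins also without Prmt6 shRNA2 replicate 2, while the difference with Prmt6 shRNA1 stayed between 3.38 and 3.47.

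Among the other 40 probes none was called by limma in any of the 4 comparisons. The lowest adjusted p was 0.351 for both hairpins, 0.358 for Prmt6 shRNA1, 0.233 for Prmt6 shRNA2 and 0.407 between the hairpins. At an unadjusted p under 0.05 the counts were 2, 2, 3 and 2 of 40 in that order, or 5.0%, 5.0%, 7.5% and 5.0%, where 12.8%, 10.2%, 15.0% and 10.1% of all kept probes fell under it. Differences of at least 1 log2 unit in size were seen for 1 of the 40 with both hairpins, against 5.89% of kept probes, 0 with Prmt6 shRNA1 (3.05%), 2 with Prmt6 shRNA2 (11.2%) and 2 between the hairpins (8.37%). Those were the second-series probes of PSMB7 and PSMD1, given further on with the array they rest on. A missed threshold does not show that these transcripts were equal between groups.

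**Figure D2:**
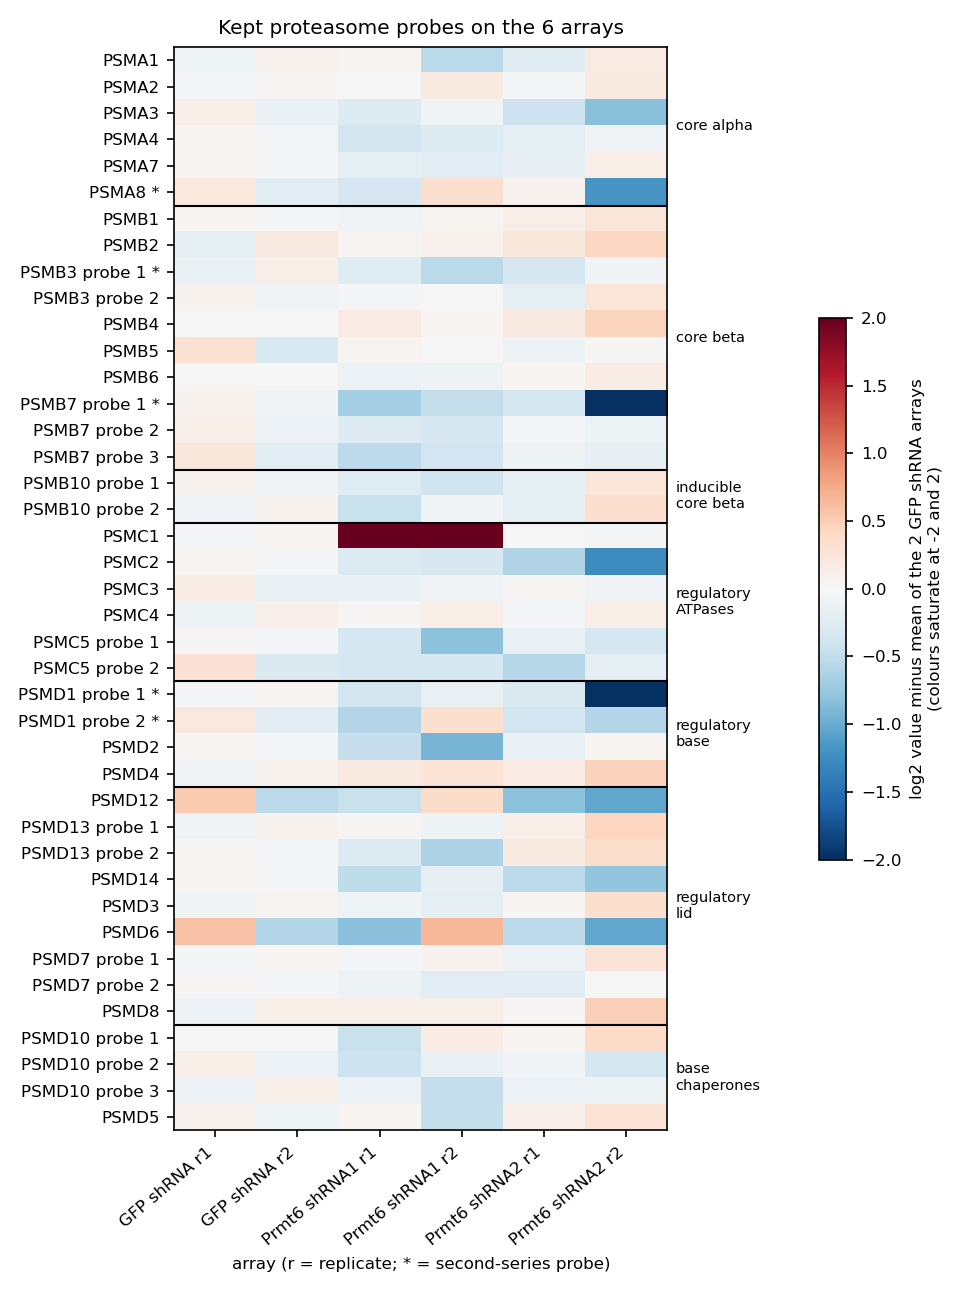
Log2 value minus the mean of the 2 GFP shRNA arrays (colour, saturating at -2 and 2) for the 41 kept proteasome probes (rows, by subunit class) on the 6 arrays (columns); an asterisk marks a second-series probe. PSMC1 on the Prmt6 shRNA1 arrays and second-series probes of PSMB7 and PSMD1 on Prmt6 shRNA2 replicate 2 are the strongest colours.

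Of the 6 kept probes for alpha subunits of the core, 5 had a negative difference for both hairpins. PSMA3, an alpha ring subunit, was the lowest, reading 13.52 and 13.24 on the GFP shRNA arrays, 13.12 and 13.33 for Prmt6 shRNA1, and 12.96 and 12.54 for Prmt6 shRNA2. It overlapped between GFP shRNA and Prmt6 shRNA1, while both Prmt6 shRNA2 arrays lay below (-0.62 ± 0.23, limma adjusted p = 0.311). PSMA2 was the highest at 0.08 ± 0.16 for both hairpins, with values between 13.77 and 14.00 on all 6 arrays. PSMA4 was lower on all 4 Prmt6 shRNA arrays, 11.75 to 12.05, than on both GFP shRNA arrays, 12.16 and 12.07 (-0.22 ± 0.15, adjusted p = 0.598). PSMA8, an alpha subunit of male germ cells, was detected on 2 arrays and lay between 5.73 and 7.22.

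The constitutive beta subunits gave 10 kept probes for 7 genes, with a median of -0.01 for both hairpins. PSMB4, a structural beta subunit, was the highest and read 13.82 and 13.80 on the GFP shRNA arrays, 13.98 and 13.86 for Prmt6 shRNA1, and 13.99 and 14.25 for Prmt6 shRNA2. All 4 Prmt6 shRNA arrays lay above both GFP shRNA arrays, by a small step that did not pass (0.21 ± 0.16, limma adjusted p = 0.642). Of the peptidase subunits, PSMB5 stood at -0.0042 ± 0.22 for both hairpins, and its groups overlapped. PSMB6 stood at -0.0089 ± 0.14. It read 13.79 on both GFP shRNA arrays, a little less with Prmt6 shRNA1 (13.67 and 13.69) and a little more with Prmt6 shRNA2 (13.83 and 13.93).

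The inducible beta subunits replace the constitutive peptidases when interferon acts on a cell. Among them PSMB10 had kept probes, 2 in number. The first read 8.59 and 8.44 on the GFP shRNA arrays, 8.28 and 8.11 for Prmt6 shRNA1, and 8.33 and 8.76 for Prmt6 shRNA2, and the second 8.74 and 8.87, 8.35 and 8.75, and 8.61 and 9.14, so that the hairpin groups together overlapped the controls on both. Their differences for both hairpins were -0.15 ± 0.19 and -0.09 ± 0.23, and neither passed. The 3 probes of PSMB8 and the 1 of PSMB9 were detected on no array. No probe named by the rule read Psmb11, the thymic subunit.

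In the regulatory base, PSMD4, a probe for the ubiquitin receptor Rpn10, was the highest at 0.27 ± 0.17 for both hairpins (limma adjusted p = 0.57). It read 13.46 and 13.61 with GFP shRNA and 13.70 to 13.99 on the 4 Prmt6 shRNA arrays, without overlap. PSMD2, for the scaffold subunit Rpn1, read 9.28 and 9.22 on the GFP shRNA arrays, 8.78 and 8.33 for Prmt6 shRNA1, and 9.11 and 9.29 for Prmt6 shRNA2. Both Prmt6 shRNA1 arrays were below the other 4, at -0.70 ± 0.22 against GFP shRNA (adjusted p = 0.358).

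In the lid, 7 of 8 genes had a kept probe. PSMD14, for the deubiquitinase Rpn11, was the lowest of 9 probes and read 10.38 and 10.29 on the GFP shRNA arrays, 9.83 and 10.17 for Prmt6 shRNA1, and 9.81 and 9.54 for Prmt6 shRNA2. All 4 Prmt6 shRNA arrays lay below both GFP shRNA arrays (-0.49 ± 0.18, limma adjusted p = 0.359). PSMD8, for the lid subunit Rpn12, was the highest at 0.19 ± 0.19. PSMD12 and PSMD6 spread widely within groups, with 9.34 against 8.28 and 7.18 against 6.00 between the GFP shRNA replicates. A probe of PSMD13, a lid scaffold subunit, had the lowest adjusted p between the hairpins. It read 11.23 and 11.19 on the GFP shRNA arrays, 10.96 and 10.60 for Prmt6 shRNA1, and 11.40 and 11.57 for Prmt6 shRNA2, a step of 0.70 ± 0.20 from the first to the second hairpin that did not pass (limma adjusted p = 0.407). Of the chaperones that build the base, PSMD10 (gankyrin) gave 3 kept probes between -0.24 and 0.03, and PSMD5 stood at -0.02 ± 0.20.

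PSMC3IP, matched by name alone, read 9.97 and 10.13 on the GFP shRNA arrays, 9.37 and 9.82 for Prmt6 shRNA1, and 9.75 and 9.82 for Prmt6 shRNA2. All 4 Prmt6 shRNA arrays were below both GFP shRNA arrays and the difference did not pass (-0.36 ± 0.19, limma adjusted p = 0.51).

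Against GFP shRNA, the median differences of core and regulatory probes lay close together. For both hairpins the median was -0.13 over the 18 kept core probes and -0.14 over the 19 kept regulatory probes, or -0.22 without PSMC1. With Prmt6 shRNA1 the medians were -0.17 and -0.13, with Prmt6 shRNA2 -0.03 and -0.05, and for Prmt6 shRNA2 minus Prmt6 shRNA1 0.20 and 0.03. Medians of the distance to the GFP shRNA mean, taken on each array, ran from -0.21 to 0.14 for the core and from -0.25 to -0.04 for the regulatory particle over the 4 Prmt6 shRNA arrays. The medians lay furthest apart on Prmt6 shRNA2 replicate 2, at 0.14 and -0.04. Replicates of this core median differed by a pooled SD of 0.13, and of the regulatory median by 0.078. Both medians come from the same arrays, so these separate SDs do not measure the spread of their difference. Whether the particles differed was not tested.

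With Prmt6 shRNA1 more members lay below the controls than above them. Both Prmt6 shRNA1 arrays lay below both GFP shRNA arrays for 19 of 41 kept probes (46.3%), where 22.0% of all kept probes did. Among probes detected on all 6 arrays it was 18 of 35, against 25.0%. Above both GFP shRNA arrays lay 4 of 41, against 19.4% of kept probes. No member of the 19 passed the limma test, the lowest of them reached -0.70, and the median over the 40 probes other than PSMC1 was -0.15. With the brightest kept probe for each gene it was 10 of 31, against 19.4%. By sign alone, 32 of 41 members lay below 0 with Prmt6 shRNA1, 24 with Prmt6 shRNA2, 28 with both and 14 in the difference between hairpins, where 56.7%, 47.3%, 52.5% and 45.2% of all kept probes did. With Prmt6 shRNA2 the counts were 9 below and 9 above of 41, against 24.4% and 27.9%. With median centring in place of the quantile step they were 9 below and 4 above, against 22.7% and 29.4%, and with the first series alone 13 below and 4 above of 36, against 30.1% and 27.5%. With both hairpins 6 of 41 lay below and 2 above, against 11.4% and 13.0%. With median centring it was 4 and 0, against 10.95% and 14.1%, and with the first series alone 10 and 0 of 36, against 14.5% and 13.6%. Prmt6 shRNA2 lay above Prmt6 shRNA1 for 16 of 41, against 24.7%, and below it for 5, against 18.3%. Members share arrays and are no replicates of a condition, and both hairpins were set against the same GFP shRNA arrays.

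**Figure D3:**
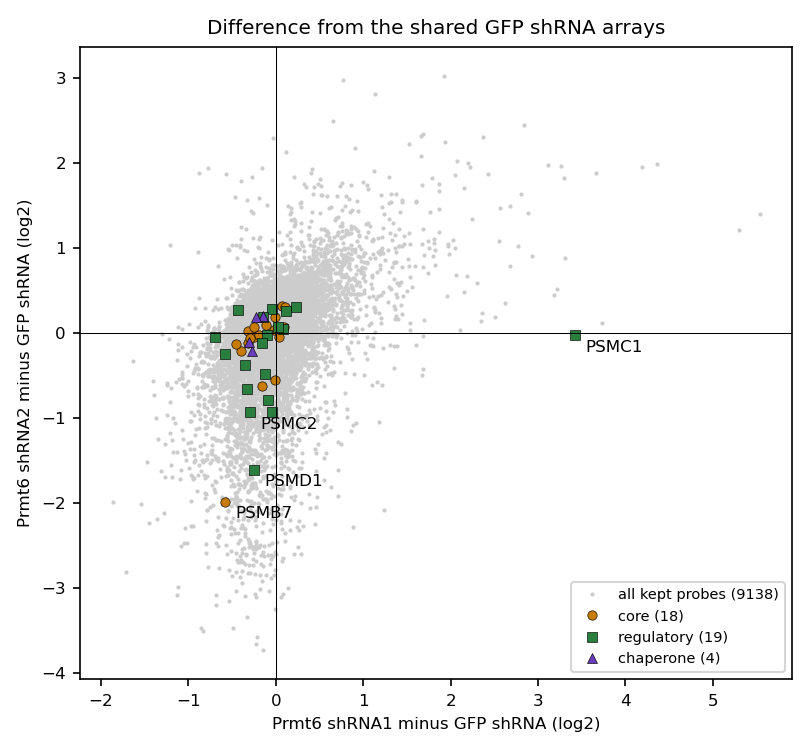
Log2 difference of each kept probe from GFP shRNA with Prmt6 shRNA1 (x axis) and Prmt6 shRNA2 (y axis), which share the GFP shRNA arrays; grey points are all 9138 kept probes and symbols the 18 core, 19 regulatory and 4 chaperone probes. Most members sit near 0 on both axes, PSMC1 lies at 3.43 and -0.02, and second-series probes of PSMB7 and PSMD1 lie at -1.99 and -1.61 on the y axis.

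The largest negative values came from second-series probes on 1 array. Psmb7, which holds the trypsin-like peptidase site, was read by 3 kept probes. The second-series probe gave 12.07 and 11.93 on the GFP shRNA arrays, 11.32 and 11.53 for Prmt6 shRNA1, and 11.64 and 8.38 for Prmt6 shRNA2. The first-series probes gave 11.56 and 11.32, and 12.04 and 11.57, on the GFP shRNA arrays. For Prmt6 shRNA1 they gave 11.19 and 11.10, and 11.28 and 11.43, and for Prmt6 shRNA2 11.42 and 11.34, and 11.71 and 11.64. On all 3 probes both Prmt6 shRNA1 arrays lay below both GFP shRNA arrays, as for 22.0% of all kept probes. None of the 3 passed the limma test. The fitted difference with Prmt6 shRNA2 was -1.99 ± 1.00 for the second-series probe and -0.06 ± 0.18 and -0.13 ± 0.22 for the first-series probes.

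Psmd1, which encodes the scaffold subunit Rpn2, was read by second-series probes alone. On Prmt6 shRNA2 the first gave 13.04 and 10.39 and the second 12.65 and 12.44, so the replicates differed by -2.65 and -0.21 within 1 gene. Over the 5 kept second-series members this step from replicate 1 to replicate 2 of Prmt6 shRNA2 ranged from -3.26 (PSMB7) to 0.27 (PSMB3). Its median was 0.17 over the first-series members without PSMC1, and -0.36 over all kept second-series probes. Without Prmt6 shRNA2 replicate 2 the differences with that hairpin were -0.36 for this PSMB7 probe and -0.28 for the PSMD1 probe. Without replicate 1, which leaves the array of low second-series signal alone, they were -3.62 and -2.94 and both passed (limma adjusted p = 0.0013 and 0.00201), as did PSMC2 at -1.26 (adjusted p = 0.0292). No change of Psmb7 or Psmd1 is taken from 1 array.

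**Figure D4:**
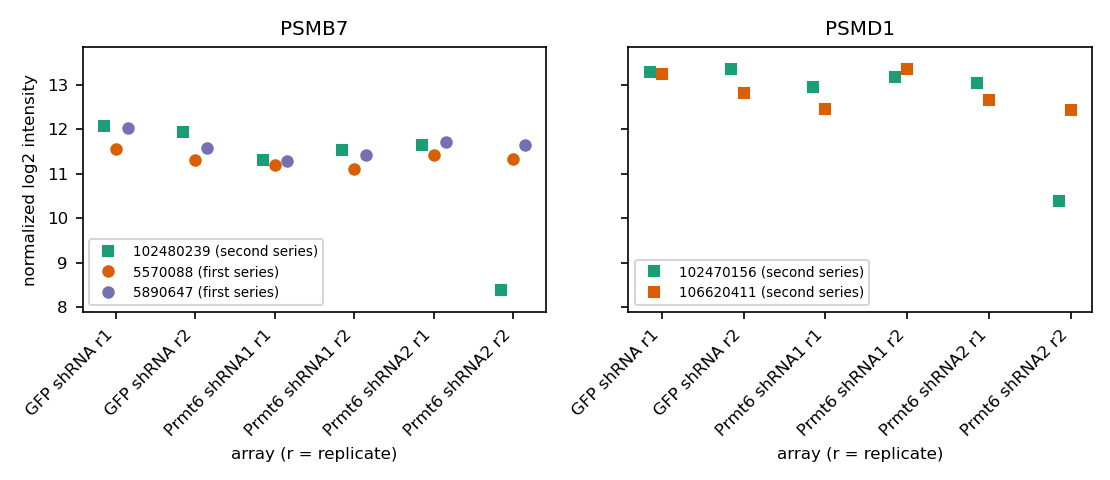
Normalized log2 intensity (y axis) of the kept PSMB7 and PSMD1 probes on the 6 arrays (x axis); squares are second-series and circles first-series probes. On Prmt6 shRNA2 replicate 2 a PSMB7 probe reads 8.38 and a PSMD1 probe 10.39 while the other probes of each gene stay with the remaining arrays.

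The 25 proteasome probes that failed the filter had intensities between -52.1 and 136.0, and 22 of them were detected on no array. For 7 genes no probe passed: PSMA5, PSMA6, PSMB8, PSMB9, PSMC6, PSMD9 and PSMD11. PSMA5, PSMA6, PSMC6 and PSMD11 are constitutive subunits that stand beside well-detected partners in the same particle, and their probes read at background with every hairpin, as the PSMC1 probe did on 4 of 6 arrays. The 2 PSMC6 probes ranged from -50.0 to 15.5, and the 1 PSMA6 probe from -39.0 to -3.2.

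Of 31 companion genes, which code for proteasome activators, assembly factors, ubiquitin and the handling of ubiquitylated proteins, 25 had a kept probe, and 0 of their 39 kept probes passed the limma test in any comparison. At an unadjusted p under 0.05 there were 5 for both hairpins, 2 for Prmt6 shRNA1, 7 for Prmt6 shRNA2 and 0 between the hairpins, where 12.8%, 10.2%, 15.0% and 10.1% of all kept probes fell under it. Their median was 0.03 for both hairpins, 0.04 for Prmt6 shRNA1 and 0.06 for Prmt6 shRNA2. The lowest for both hairpins was a second-series probe of UCHL5, a proteasome-bound deubiquitinase, at -1.84 ± 1.41 (limma adjusted p = 0.64). It read 5.52 on Prmt6 shRNA2 replicate 2, the array of low second-series signal, and 10.41 to 11.35 on the other 5 arrays. The first-series probes of UCHL5 stood at -0.49 ± 0.22 and -0.64 ± 0.32, and neither passed.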

How the data were processed

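Total RNA of CCE cells was hybridized as biotinylated cRNA to 6 Illumina mouse bead arrays, whose build is not given in the sources used here. Per the file headers, the deposited table held a linear mean intensity of the beads of each probe. Its negative values show that the authors had subtracted a background. Beside it stood a deposited detection score from 0 to 1, taken as 1 minus a p-value since brighter probes scored higher. The authors also deposited log2 values, for which the submitters' processing notes name lumi. The method is not given in the sources used here.

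Intensities were corrected and quantile-normalized with neqc (offset 16) in limma 3.58.1 under R 4.3.3. Probes with a detection p under 0.01 on at least 2 arrays were kept (9138 of 46643), and lmFit and eBayes fitted 1 mean for each hairpin (prior degrees of freedom 2.49, residual 3). Two-sided p-values were adjusted across every kept probe (Benjamini-Hochberg) and called below 0.05. The ± values are limma standard errors, or SD where so marked. Fold limits set the mean of the bright group against, on each dim array, the higher of its value and the lowest detected signal. First-series probes numbered 24613 and second-series probes 22030.

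Members, lists and tests were chosen with earlier results of these data known. Named were all PSMC probes, called members, PSMB8 to PSMB10, and the highest and lowest probe of each subunit class and of the companion list for both hairpins. The highest companion probe is not reported here. Others were named after their values were seen. Same-numbered deviations correlated at -0.663, 0.111 and -0.337 between groups, and the main fit did not pair the arrays by number. With 2 arrays in each group, these correlations cannot show whether same-numbered arrays were prepared together. With the replicate number as a block, no kept probe was called in any comparison. Alternatives varied normalization, background, filter, probe choice, block, weights and arrays.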

Additional observations from a re-analysis of the deposited data

Results flagged for a closer look

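The PSMC1 probe differed between the hairpins: its log2 difference for Prmt6 shRNA2 minus Prmt6 shRNA1 was -3.45. With Prmt6 shRNA1 both arrays stood above both GFP shRNA arrays, and with Prmt6 shRNA2 the arrays overlapped them. No GFP shRNA or Prmt6 shRNA2 array detected the probe, so that overlap lay below detection. The probe was singled out with these values known, so they are given as a description.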

How the results depend on the processing

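The 40 proteasome probes other than PSMC1 stayed uncalled in every alternative run except without Prmt6 shRNA2 replicate 1. With probes detected on all 6 arrays, which drops PSMC1, and with the replicate number as a block, the count called was 0 for both hairpins, for Prmt6 shRNA1 and for Prmt6 shRNA2 minus Prmt6 shRNA1. With the numbers crossed for Prmt6 shRNA1, which was chosen after seeing the data, the table held 61 calls for both hairpins, against 0 with the block and 29 without it. As single arrays were left out the members called ranged from 0 to 3 for both hairpins, 0 to 1 for Prmt6 shRNA1, and 0 to 3 for Prmt6 shRNA2 and for the difference between hairpins. Over the whole table, calls for both hairpins numbered 109 of 6539 with the brightest probe for each gene, 276 of 6852 with the first series alone, 222 of 5159 with detection on all arrays, 90 with the authors' values and 4 with no filter, and the cause was not tested. With Prmt6 shRNA1 they ran from 0 to 209 over those alternatives and the block, against 50, with Prmt6 shRNA2 from 0 to 217, against 0, and between hairpins from 0 to 93, against 3. Without Prmt6 shRNA2 replicate 1 there were 739 for both hairpins, and 0 without any of the other arrays.

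PSMC1 kept its pattern at other sizes. With the authors' values it was 1.15 for both hairpins, 2.34 for Prmt6 shRNA1 and -2.37 between the hairpins. With median centring it was 1.91, 4.00 and -4.18, with offset 50 it was 1.36, 2.74 and -2.75, and without further background correction 1.77, 3.61 and -3.69. For Prmt6 shRNA2 it was -0.18 with median centring and -0.078 without background correction. As arrays were left out it ranged from 1.66 to 1.75 for both, 3.38 to 3.47 for Prmt6 shRNA1, -0.066 to 0.020 for Prmt6 shRNA2 and -3.46 to -3.44 between hairpins.

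The median of PSMC2 to PSMC6 for both hairpins was -0.072 with no filter, -0.21 with detection on all arrays or the brightest probe, and -0.47 with the first series alone. With Prmt6 shRNA1 it was -0.16 with the authors' values, -0.24 with median centring, -0.25 without background correction, -0.091 with no filter, -0.23 with detection on all arrays, -0.37 with the first series and -0.20 with the brightest probe. With Prmt6 shRNA2 it was -0.19 with the authors' values, -0.18 with median centring, -0.093 with no filter, -0.14 with detection on all arrays, -0.34 with the first series and -0.20 with the brightest probe. Between hairpins it was 0.031 with detection on all arrays and -0.084 with the first series. As arrays were left out it ranged from -0.45 to -0.073 for both, -0.33 to -0.063 for Prmt6 shRNA1, -0.28 to -0.082 for Prmt6 shRNA2 and -0.11 to 0.051 between hairpins. With no filter the regulatory median was -0.053 for both and -0.045 with Prmt6 shRNA1, and the core median was -0.025 with Prmt6 shRNA1 and 0.061 between hairpins. With the first series alone the regulatory median was -0.13 for Prmt6 shRNA2. As arrays were left out, the core median ranged from -0.17 to -0.035 for both, -0.23 to -0.073 for Prmt6 shRNA1, -0.14 to 0.14 for Prmt6 shRNA2 and 0.075 to 0.26 between hairpins. The regulatory median ranged from -0.21 to -0.041, -0.25 to -0.063, -0.15 to -0.036 and -0.086 to 0.15 in the same order.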
